A study of Homo sapiens with 6 samples.

Results

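The genes described here belong to enzyme families with members that clear reactive carbonyl compounds. The families are the aldehyde dehydrogenases (ALDH), the aldo-keto reductases (AKR), the carbonyl reductases (CBR) and the numbered DHRS genes of short-chain dehydrogenases. Genes were chosen by symbol and not by function. They are the RefSeq protein-coding genes that start with ALDH, or with AKR, CBR or DHRS and a digit. This gave 47 of the 19974 protein-coding genes on chromosomes 1 to 22 and X, namely 19 ALDH, 13 AKR, 3 CBR and 12 DHRS genes. The study mapped where NRF2 sits on chromatin in HMC3 cells, an established line of human microglia, by ChIP-seq, in which DNA bound to an immunoprecipitated protein is sequenced. Of the 4 libraries, 2 came from vehicle cells and 2 from cells that received the NRF2 activator CDDO-Im, a synthetic triterpenoid (30 nM, 4 h). All samples carry 1 treatment text, which names CDDO-Im, and so the titles alone separate the groups. Nothing says that libraries of a group came from separate cultures. The p-values measure only the spread between these libraries, which may be technical. A peak was assigned to a gene when its summit lay inside the gene or within 20 kb of either end. Peak lists hold no expression values, so the cell line could not be checked against microglial markers.

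NRF2 is held back by KEAP1 in resting cells and is released by electrophiles. With a small MAF partner it then binds antioxidant response elements near genes for detoxification. Aldehyde dehydrogenases oxidise aldehydes such as those from lipid peroxidation, while aldo-keto and carbonyl reductases reduce aldehydes, ketones and quinones with NADPH. Several AKR1C, AKR1B, CBR and ALDH3 genes are known NRF2 targets in human cells.

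The deposited lists held 3882 to 12244 peaks per library on these chromosomes, and the list of CDDO-Im 2 was the longest. Each peak has a fold enrichment over local background and a significance. From both, the number of sequenced tags stacked at the summit was recovered, and tags were divided by the lowest background of the library, a measure of its depth, before libraries were compared. This background lay between 0.315 tags (vehicle 2) and 0.367 tags (CDDO-Im 2). In every library the weakest listed peaks at this background had 4 tags, so an unlisted site may still hold a few.

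The promoters below were picked for a listed region near the gene or for the letters they hold. AKR1C3 held the member region with the most tags, AKR1C2 and AKR1C3 flanked a region of both CDDO-Im libraries, ALDH3A2 had the closest listed summit among those outside a gene, and CBR1 and AKR7A2 had no listed summit within 20 kb but hold the antioxidant response element core TGACNNNGC. Each is the 250 bases before an annotated start, read 5′ to 3′ on the gene's strand from RefSeq (GRCh38.p14), and capitals mark the core on either strand. AKR1C3 has 2 starts in the table, at chr10:5048531-5048780 and chr10:5094164-5094413 (plus strand). AKR1C2 is at chr10:5003858-5004107 (minus strand), ALDH3A2 at chr17:19647886-19648135 (plus), CBR1 at chr21:36069774-36070023 (plus) and AKR7A2 at chr1:19312147-19312396 (minus). The AKR1C2 start used here lies inside the gene.
AKR1C3, outer start: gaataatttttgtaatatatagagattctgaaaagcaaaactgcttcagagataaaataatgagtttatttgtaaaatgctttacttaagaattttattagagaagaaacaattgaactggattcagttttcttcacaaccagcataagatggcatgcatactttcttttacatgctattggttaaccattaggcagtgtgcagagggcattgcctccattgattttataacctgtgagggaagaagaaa
AKR1C3, inner start: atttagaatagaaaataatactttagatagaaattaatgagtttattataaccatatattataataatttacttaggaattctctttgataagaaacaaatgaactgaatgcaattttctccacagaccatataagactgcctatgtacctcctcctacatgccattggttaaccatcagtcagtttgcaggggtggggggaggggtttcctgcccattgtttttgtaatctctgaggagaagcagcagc
AKR1C2: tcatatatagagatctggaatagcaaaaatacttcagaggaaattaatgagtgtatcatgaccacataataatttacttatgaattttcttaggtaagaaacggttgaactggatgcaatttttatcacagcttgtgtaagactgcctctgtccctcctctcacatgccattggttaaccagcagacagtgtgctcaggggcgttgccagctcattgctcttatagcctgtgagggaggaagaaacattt
ALDH3A2: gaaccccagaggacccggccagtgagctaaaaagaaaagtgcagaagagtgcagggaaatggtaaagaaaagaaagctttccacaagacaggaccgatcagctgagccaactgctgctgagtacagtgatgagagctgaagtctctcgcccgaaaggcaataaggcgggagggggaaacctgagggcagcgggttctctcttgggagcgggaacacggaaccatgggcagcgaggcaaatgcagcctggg
CBR1: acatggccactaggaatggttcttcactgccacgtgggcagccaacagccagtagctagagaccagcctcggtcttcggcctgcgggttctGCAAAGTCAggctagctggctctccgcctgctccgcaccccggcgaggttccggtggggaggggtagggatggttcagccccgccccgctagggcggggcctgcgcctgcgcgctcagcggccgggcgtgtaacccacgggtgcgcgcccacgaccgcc
AKR7A2: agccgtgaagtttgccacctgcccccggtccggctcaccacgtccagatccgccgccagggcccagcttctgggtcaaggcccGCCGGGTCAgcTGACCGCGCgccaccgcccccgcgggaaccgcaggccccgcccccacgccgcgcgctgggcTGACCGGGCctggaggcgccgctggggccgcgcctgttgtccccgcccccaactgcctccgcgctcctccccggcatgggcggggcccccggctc

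None of the 9 member regions overlapped a promoter of the table, which covers 250 bases before to 50 after a start and holds 57 promoters of 37 of the 47 genes. The core was present in 5 of the 57 member promoters (8.77%), those of AKR7A2 (both starts), CBR1, DHRS1 and DHRS9, against 13.3% of all 35116 promoters. The promoters of DHRS1 and DHRS9 are not printed above. The AP-1 motif TGANTCA, which can overlap longer forms of the core, was present in 2 member promoters, of DHRS3 and DHRS9 (3.51%), against 7.71% of all promoters. A match is a description of the letters and not a binding site. The letters under the peaks themselves were not used here.

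Listed NRF2 peaks lay near 8 of the 47 genes, and CDDO-Im libraries held most of them. In vehicle 1 and vehicle 2 a single gene, AKR1C3, had a peak. CDDO-Im 1 listed peaks near 3 genes (AKR1C2, AKR1C3 and ALDH9A1) and CDDO-Im 2 near 8, these 3 and AKR1B1, ALDH1A3, ALDH1L1, ALDH3A1 and ALDH3A2. The difference between group means was 2.29 on the log2 scale (4.90-fold, exact permutation test over libraries, two-sided, p = 0.333, n = 2 and 2), and both CDDO-Im counts lay above both vehicle counts. With summits inside genes only or within 10 kb, CDDO-Im 1 listed 1 member gene, as did each vehicle library. The p of 0.333 is the smallest this design allows, and over the 2 permutation tests made the Benjamini-Hochberg adjusted p was 0.333 as well. Over all protein-coding genes the same difference was 1.51 (2.86-fold), with peaks near 831, 908, 2085 and 2951 genes in the same order of libraries.

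Read against all protein-coding genes, the shares for the enzyme families as a whole were near the background. Any of the 4 libraries listed a peak near 17% of the members and near 20.5% of all protein-coding genes. By library the members' shares were 2.13%, 2.13%, 6.38% and 17%, against 4.16%, 4.55%, 10.4% and 14.8% of all genes. A region is a set of overlapping peaks. Regions of both CDDO-Im libraries lay near 3 members (6.38%, against 7.30%), and regions of both CDDO-Im and neither vehicle library near the same 3 genes (6.38%, against 4.85%). The latter were 2 regions, because AKR1C2 and AKR1C3 share a region. A region of both vehicle libraries lay near 1 member, AKR1C3 (2.13%, against 1.07%), and this region was listed in all 4 libraries (2.13%, against 1.06%). Members spanned a median of 29461 bp and all protein-coding genes 24170 bp. Per megabase of gene and flank, the members held 0.301, 0.301, 0.903 and 2.71 peaks in the 4 libraries, and all genes 0.430, 0.461, 1.16 and 1.74. These shares carry no test.

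**Figure D1:**
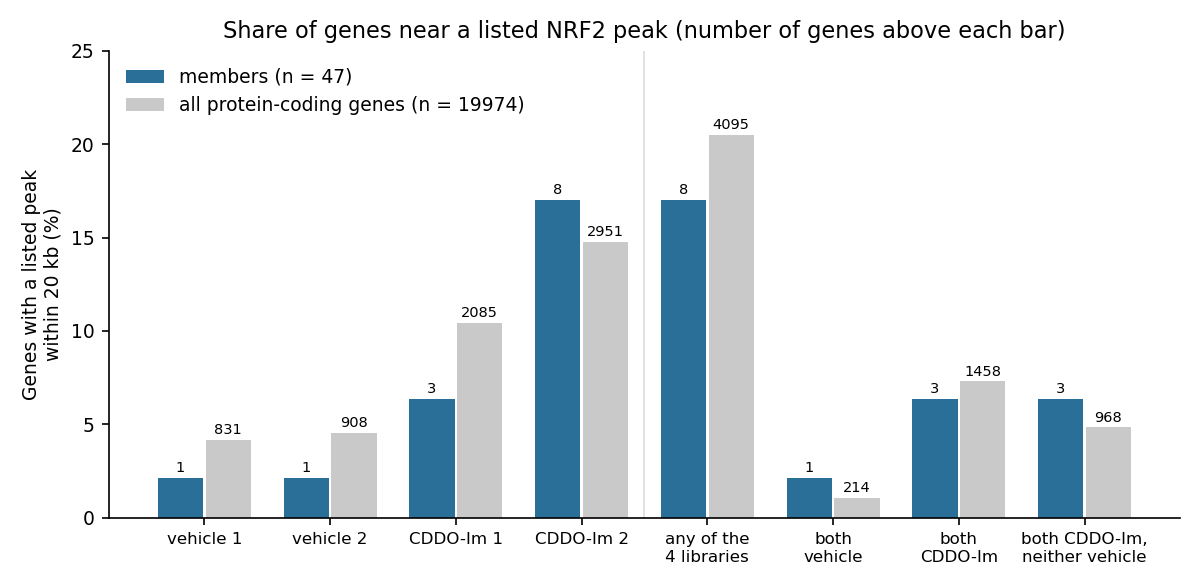
Percent of genes with a listed NRF2 peak within 20 kb, for the 47 members (blue) and all 19974 protein-coding genes (grey), by library on the left and by shared listing on the right, with the number of genes above each bar. Any of the 4 libraries listed a peak near 17% of members and 20.5% of all genes.

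The steroid- and prostaglandin-metabolising AKR1C enzymes on chromosome 10 held the member sites with the most tags. AKR1C3 (gene ID 8644, 5048781 to 5107686), a hydroxysteroid dehydrogenase that also makes prostaglandin F, had a region inside the gene at chr10:5071657-5072144 (hg38, as all positions here). The gene table gives no exons, so exon and intron were not told apart. The region held 16 tags in vehicle 1 and 6 in vehicle 2, against 38 in CDDO-Im 1 and 70 in CDDO-Im 2. Over background these were 50.7 and 19.1 against 115 and 191. The groups did not overlap: CDDO-Im 2 was highest, and vehicle 2 was the lowest of the 4. Exact 95% Poisson intervals, which cover counting error only, ran from 9.15 to 26.0 tags in vehicle 1, from 2.2 to 13.1 in vehicle 2, from 26.9 to 52.2 in CDDO-Im 1 and from 54.6 to 88.4 in CDDO-Im 2. The ratio of CDDO-Im to vehicle was 4.37 (exact permutation test over libraries, two-sided, p = 0.333, n = 2 and 2, the smallest possible; adjusted p = 0.333). It was 3.01 without vehicle 2 and 8 without vehicle 1.

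A difference in this direction was common among sites listed under both conditions. Of the 153 regions of all 4 libraries within 20 kb of a protein-coding gene, the CDDO-Im libraries both exceeded both vehicle libraries in 142 (92.8%), in tags over background. The median ratio over the 153 was 3.34, with quartiles of 2.67 and 3.94, and the AKR1C3 region ranked 21 from the top. The authors' deposited fold enrichment at AKR1C3 was 12.9 and 5.32 in the vehicle libraries, and 29.3 and 51.9 in the CDDO-Im libraries. The −log10 p was 23.2 and 7.34, and 65.1 and 133, and the −log10 q was 18.1 and 3.56, and 59.6 and 127. Within its own list the peak ranked 92 of 4098 in vehicle 1, 4324 of 7308 in vehicle 2, 76 of 3882 in CDDO-Im 1 and 51 of 12244 in CDDO-Im 2. Ranks from lists of such different length show no change between libraries.

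A further AKR1C site appeared in the CDDO-Im lists alone. It lay between genes at chr10:5033350-5033706, 15535 bp outside AKR1C2 (gene ID 1646, 4987775 to 5018000), which inactivates dihydrotestosterone, and 15246 bp outside AKR1C3. CDDO-Im 1 held 26 tags and CDDO-Im 2 held 35 (78.4 and 95.3 over background), and neither vehicle library listed a peak there. The deposited fold enrichments were 20.3 and 26.3, with a −log10 p of 41.1 and 57.4 and a −log10 q of 36.1 and 52.5. The summit was 38377 bp from that of the intragenic AKR1C3 region. It was 15246 bp upstream of the outer AKR1C3 start and 29678 bp upstream of the AKR1C2 start whose promoters are printed above. This AKR1C2 start lies inside the gene, whose outer end on that side is 15535 bp from the site. AKR1C1, a progesterone-reducing enzyme, lay 50252 bp from this site and thus beyond the window, as did AKR1C4, the liver form, and AKR1C8. The AKR1C genes are close paralogs, and the sources used here do not give how tags that fit several copies were handled, so tags at these sites are uncertain to that extent.

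**Figure D2:**
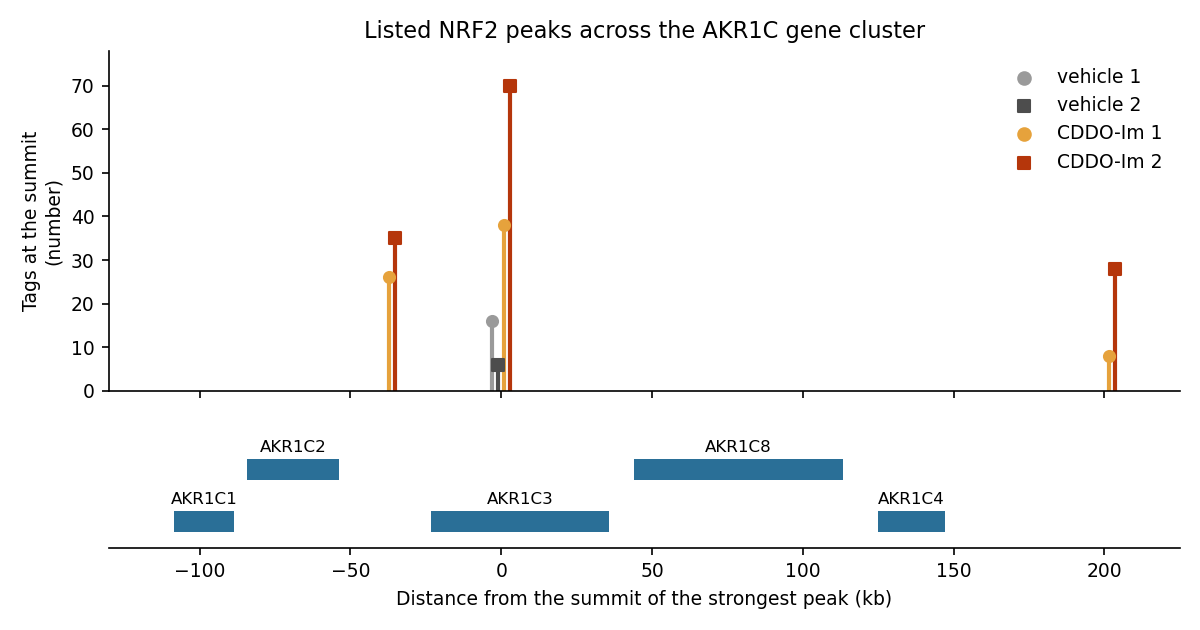
Tags at each listed summit (upper panel, number) and the AKR1C genes (lower panel, blue bars) against distance in kb from the summit of the strongest peak, with stems of the 4 libraries spread sideways so that they can be told apart. The site inside AKR1C3 was listed in all 4 libraries with 6 to 70 tags, and the sites on either side in the CDDO-Im libraries alone.

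In the aldose reductase group, 1 of 4 genes had a listed peak (25%, against 20.5% of all protein-coding genes). AKR1B1 (gene ID 231), aldose reductase, which turns glucose into sorbitol, had a region inside the gene at chr7:134448672-134449001 with 12 tags in CDDO-Im 2. Its deposited fold enrichment was 8.62, with a −log10 p of 13.8 and a −log10 q of 10.0, and the other libraries did not list it. The start of AKR1B1 lay 10263 bp away, with the site downstream. The neighbouring AKR1B10, which reduces retinal and lipid aldehydes, and AKR1B15 had no summit of any library closer than 78730 and 72423 bp. AKR1A1, the general aldehyde reductase, had its nearest summit 28836 bp away, in CDDO-Im 2 with 13 tags.

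Of the 8 aldehyde-clearing ALDH genes, 3 had a listed peak (37.5%, against 20.5% of all protein-coding genes), all with CDDO-Im. CDDO-Im 1 listed 1 of the 8 (12.5%, against 10.4%) and CDDO-Im 2 listed 3 (37.5%, against 14.8%). ALDH9A1 (gene ID 223), which acts in carnitine synthesis, had a region at chr1:165650993-165651353, 11038 bp outside the gene in CDDO-Im 1 and 11045 bp in CDDO-Im 2. It held 14 and 21 tags (42.2 and 57.2 over the lowest background of each library), and neither vehicle library listed it. The local background there was higher, at 0.592 and 1.02 tags. The deposited fold enrichments were 9.42 and 10.9, with a −log10 p of 15.8 and 21.3 and a −log10 q of 11.6 and 17.2. The summit lay inside MGST3, a microsomal glutathione transferase, so the distance rule assigns it to both genes. ALDH3A2 (gene ID 224), the fatty aldehyde dehydrogenase, had a region at chr17:19647437-19647751 with 19 tags in CDDO-Im 2 alone. Its summit lay 538 bp upstream of the ALDH3A2 start printed above, the closest of all member summits outside a gene. ALDH3A1 (gene ID 218), the aldehyde dehydrogenase abundant in cornea, had a region 4883 bp outside the gene at chr17:19753040-19753334 with 29 tags in CDDO-Im 2 alone, and this site lay 17649 bp from the autophagy kinase gene ULK2. The deposited fold enrichment was 13.3 at ALDH3A2 and 16.2 at ALDH3A1, with a −log10 p of 24.5 and 34.8 and a −log10 q of 20.2 and 30.3. ALDH2, the main enzyme of acetaldehyde clearance, and ALDH1B1, ALDH3B1, ALDH3B2 and ALDH7A1 had no listed peak within the window.

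The retinaldehyde and folate groups had weak peaks of 1 library. ALDH1A3 (gene ID 220), which makes retinoic acid, had 8 tags in CDDO-Im 2, 13085 bp upstream of its start (chr15:100866647-100866922). The protein-coding gene LOC124903575 lay nearer to this site, at 12200 bp. ALDH1A1 and ALDH1A2, the other retinaldehyde dehydrogenases, had no listed peak in the window. ALDH1L1 (gene ID 10840), a folate enzyme used as an astrocyte marker, had 5 tags inside the gene (chr3:126175020-126175323) and 9 tags 10852 bp outside it (chr3:126208689-126208877), both in CDDO-Im 2. The former ranked 11758 of the 12244 peaks of that list. These 3 peaks had 21.8, 13.6 and 24.5 tags over background, below the lowest value of 32.7 among the other member peaks of CDDO-Im 2. Their deposited fold enrichments were 6.58, 4.11 and 6.53 in the same order, with a −log10 p of 9.62, 5.06 and 9.52 and a −log10 q of 6.03, 2.06 and 5.97.

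**Figure D3:**
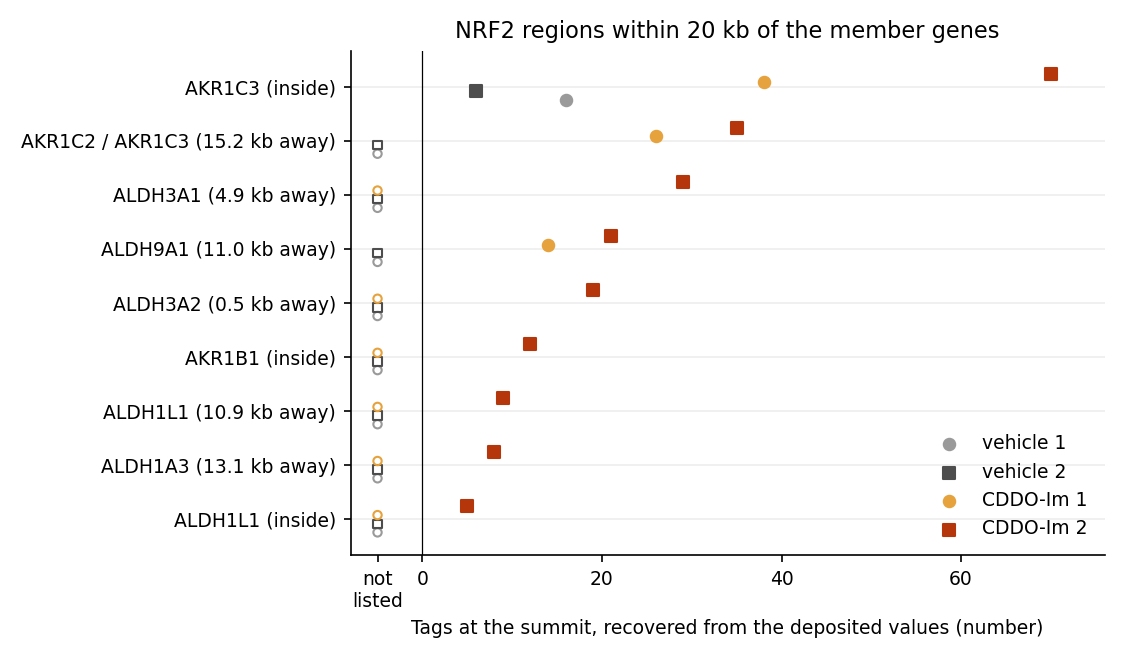
Tags at the summit (number) of the 9 regions within 20 kb of a member gene, by library, with open symbols at the left for libraries that did not list the region and the distance to the nearest member in the labels. The AKR1C3 region was listed in all 4 libraries, 2 regions in both CDDO-Im libraries and 6 in CDDO-Im 2 alone.

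CDDO-Im 2 alone gave 6 of the 9 regions and 5 of the 8 genes (10.6% of the members, against 6.27% of all protein-coding genes). Its list was also the longest, with 12244 of the 27532 analysed peaks, and its part in these listings was not tested. Without CDDO-Im 1, so that CDDO-Im 2 stands for the group, 8 members had a CDDO-Im region that no vehicle library listed (17%, against 12.6% of all protein-coding genes). Without CDDO-Im 2 the number was 3 (6.38%, against 8.09%). None of the 9 regions lay in the 77 megabases that held more than 20 regions each.

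Whole groups had no listed peak in the window. They were the 12 DHRS genes, among them the retinaldehyde reductase gene DHRS3, the carbonyl reductases CBR1, CBR3 and CBR4, and the mitochondrial amino acid and semialdehyde enzymes ALDH4A1, ALDH5A1, ALDH6A1 and ALDH18A1. The same held for ALDH8A1, ALDH16A1, AKR1D1, AKR1E2, AKR7A2 and AKR7A3, and for ALDH1L2 of the folate group. CBR1 and CBR3, which reduce quinones, had their nearest summits of any library 222886 and 149488 bp away. In all, 39 of the 47 genes (83.0%) had none, against 79.5% of all protein-coding genes. Sites under about 4 tags at the lowest background would go unlisted, and more tags were needed where the local background was higher. Occupancy below those levels was not detectable.

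The window limit fell between AKR1C2, the farthest gene inside it at 15535 bp, and ALDH5A1 just outside at 22580 bp. ALDH5A1, which clears succinic semialdehyde from GABA breakdown, had 18 tags in CDDO-Im 2 there. ALDH1A1 followed at 26641 bp where CDDO-Im 1 held 13 tags, CDDO-Im 2 held 17 and no vehicle peak was listed. Within 100 kb, the CDDO-Im libraries listed a peak for 22 of the 47 genes (46.8%, against 40.8% of all genes) and the vehicle libraries for 12 (25.5%, against 19.2%). The median distance to the nearest CDDO-Im summit was 146 kb for members and 143 kb for all genes, and to the nearest vehicle summit 285 and 404 kb.

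**Figure D4:**
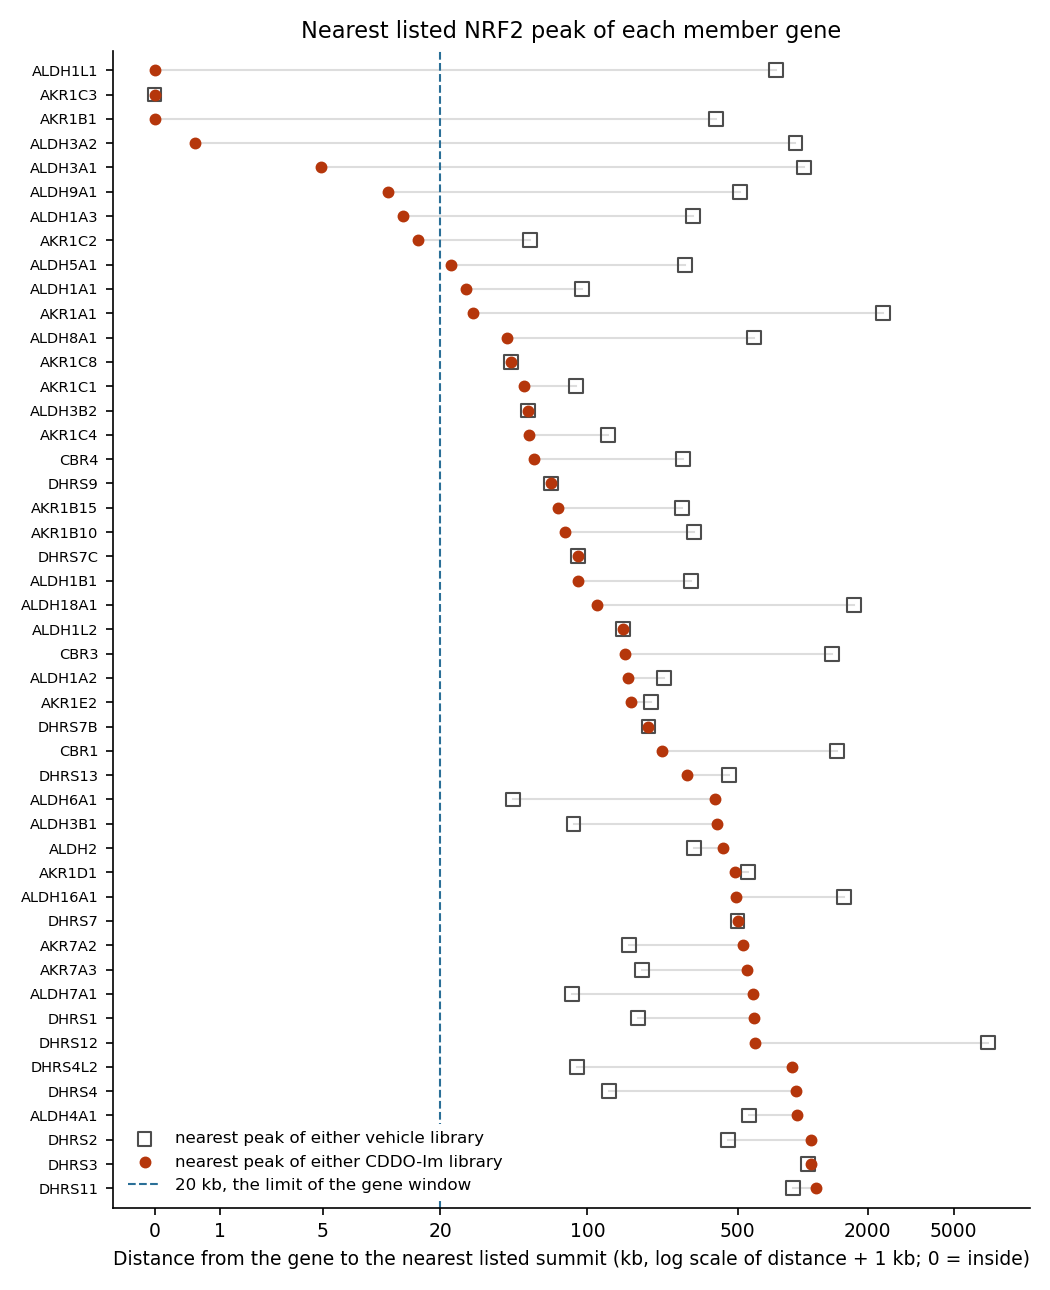
Distance in kb (log scale of distance plus 1 kb) from each of the 47 genes to the nearest summit of either vehicle library (open squares) and of either CDDO-Im library (red points), where 0 means inside the gene and the dashed line is the 20 kb limit. AKR1C3 is the only member with a vehicle summit left of the line, while 8 members have a CDDO-Im summit there.

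Of the 12 members named as known NRF2 targets, 5 had a listed peak in the window: AKR1B1, AKR1C2, AKR1C3, ALDH3A1 and ALDH3A2 (41.7%, against 20.5% of all protein-coding genes). AKR1A1, AKR1B10, AKR1C1, ALDH1A1, ALDH7A1, CBR1 and CBR3 had none. CDDO-Im 1 listed 2 of the 12 (16.7%, against 10.4%) and CDDO-Im 2 listed 5 (41.7%, against 14.8%). Each vehicle library listed 1 (8.33%, against 4.16% and 4.55%). AKR1B1, ALDH3A1 and ALDH3A2 had peaks in CDDO-Im 2 alone, the longest list. Both CDDO-Im libraries shared a region near 2 of the 12, AKR1C2 and AKR1C3 (16.7%, against 7.30%), and both vehicle libraries near 1, AKR1C3 (8.33%, against 1.07%). The list is small and was chosen with earlier results of these data known. AKR1C2 and AKR1C3 share a site, so they are not independent genes here.

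Other genes of carbonyl and retinoid metabolism, such as alcohol and retinol dehydrogenases and retinoic acid hydroxylases, had a listed peak for 5 of 42 (11.9%, against 20.5%). ADH7, the stomach form of alcohol dehydrogenase that also oxidises retinol, shared a region between the CDDO-Im lists, 16314 and 16388 bp outside the gene, which held 11 tags in replicate 1 and 12 in replicate 2. It also had separate peaks of vehicle 1 (7 tags) and CDDO-Im 2 (9 tags). CYP26C1, a retinoic acid hydroxylase, had 12 and 12 tags in the CDDO-Im libraries, 17518 and 17488 bp upstream of its start. These 2 genes (4.76%, against 4.85%) had regions that neither vehicle library listed. PTGR1, a prostaglandin reductase known as an NRF2 target, had 8 tags inside the gene in vehicle 2 and no CDDO-Im peak. RDH16, a retinol dehydrogenase, had 15 tags in CDDO-Im 2.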

How the data were processed

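NRF2 ChIP-seq peaks of 4 HMC3 libraries were analysed, and the 2 inputs were left out. The submitters' processing notes name MACS2 2.2.7.1, BWA 0.7.17 and bcl2fastq 2.15.0 as tools, and hg38 and GRCm38 as builds. Chromosome names and positions match hg38. The sources used here give neither the control nor the threshold of peak calling. The deposited lists were called per library and give a fold enrichment (ratio), a −log10 p and a −log10 q per peak, which are the authors' values, together with a score, also deposited, equal to 10 times the −log10 q without its decimals.

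Tags were recovered as the whole number for which fold equals tags plus 1 over background plus 1 and p the Poisson tail, within 0.001 plus 0.0002 of the value. A whole number was found for 100% of peaks, and a single one for 97.7% to 99.4%. Peaks overlapping by at least 1 bp were joined. Genes and promoters came from RefSeq (GRCh38.p14), and 2750 of 2750 overlapping promoters of opposite strands matched as reverse complements. Scripts ran in Python 3.11.15 with numpy 2.4.6, pandas 2.3.3 and scipy 1.17.1, and were tested on simulated data. The members, gene lists and tests were chosen with earlier results of these data known. Named genes were all members with a region of both libraries of a group, the 10 strongest regions of 1 library (there were 6), and the 12 known targets. Alternatives changed the q threshold, window, overlap, dense megabases, list length, depth measure, pairing and libraries. The values of 1 gene of the pathway list, which is in its counts, are not reported here.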

Additional observations from a re-analysis of the deposited data

How the results depend on the processing

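The log2 difference in member genes and the AKR1C3 ratio stayed above 0 and above 1 under every alternative that gave a value, and 4 of the 12 alternatives moved each of the 3 counts of genes with shared regions by over 1.5 times. Member genes with a region of both CDDO-Im and neither vehicle library numbered 3, but 0 inside genes only and within 10 kb, and 5 within 50 kb. Over all protein-coding genes, those settings gave 622, 779 and 1511 genes against 968. Genes whose region both CDDO-Im lists held numbered 3, but 1 inside genes only and within 10 kb, and 6 within 50 kb (over all genes 890, 1154 and 2317 against 1458). Genes with a region of both vehicle libraries numbered 1, but 0 at a −log10 q of at least 5 or at least 10 and at equal list length (3882 peaks), where vehicle 2 no longer listed AKR1C3, and 2 within 50 kb (over all genes 142, 45, 196 and 361 against 214). Leaving out 1 library gave 3 to 8, 3 to 8 and 1 to 1 genes for these counts, where the 8 came without CDDO-Im 1. Over all protein-coding genes the same counts were then 1048 to 2508, 1458 to 2951 and 214 to 908, and without CDDO-Im 1 the first and second were 2508 (12.6%) and 2951 (14.8%). The log2 difference in member genes was 1.58 to 3.00 when 1 library was left out, 0.792 inside genes only, 1.16 within 10 kb and 1.85 within 50 kb. Inside genes and within 10 kb the exact permutation p was 1.00, since CDDO-Im 1 listed 1 member gene, as the vehicle libraries did. It could not be computed at a −log10 q of at least 5 or 10 or at equal list length, because vehicle 2 then had no member gene. The AKR1C3 ratio was 3.01 to 8 when 1 library was left out. It was 3.01 where the stricter lists dropped vehicle 2, and 4.27 with depth taken from the shortest peak. Where 1 library was left in a group, only the ratio is given.

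With replicate numbers as a block, the log2 difference in genes was 2.29 (exact sign-flip permutation p = 0.5). The AKR1C3 ratio was then 4.75 (exact sign-flip permutation p = 0.5), with ratios of 2.26 and 9.99 for numbers 1 and 2. This 4.75 is the geometric mean of the paired ratios, a measure unlike the ratio of group means used elsewhere. The p of 0.5 is the smallest that 2 pairs allow. Deviations of same-numbered libraries correlated at 0.24 over 433 regions of all 4 libraries and at -0.04 over the 230 outside dense megabases, and the labels do not say that a number marks a shared batch. The weaker sites rested on 5 to 9 tags, and the part that depth plays there was not tested.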

Other observations

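Several members had sites beyond the 20 kb window. On the far side of the AKR1C cluster, 53328 bp outside AKR1C4, a region at chr10:5272076-5272498 held 8 tags in the first and 28 in the second CDDO-Im library, with no vehicle peak. ALDH1A1, a retinaldehyde dehydrogenase, had a farther region 61245 bp outside the gene at chr9:72839268-72839590, where CDDO-Im 1 held 20 tags, CDDO-Im 2 held 18 and no vehicle peak was listed. ALDH8A1, an enzyme of tryptophan breakdown, had 13 and 15 tags in the CDDO-Im libraries 41823 and 41826 bp away. DHRS9, a retinol dehydrogenase, had a region 67208 bp away in vehicle 2, with 7 tags there and 9 and 23 in the CDDO-Im libraries.

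A few distant sites had like tag numbers in single libraries of both groups. The region 52662 bp from ALDH3B2 held 9 tags in vehicle 1 and 10 in CDDO-Im 2, and that 90302 bp from DHRS7C held 9 tags in vehicle 2 and 9 in CDDO-Im 2. ALDH6A1, ALDH7A1, ALDH3B1 and DHRS4L2 had a vehicle peak and no CDDO-Im peak within 100 kb. Their nearest summits lay 44677, 84796, 86049 and 89334 bp away, with 7, 6, 4 and 6 tags. These genes were chosen after their values were seen, and the differences were not tested.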
